A study of Mus musculus with 17 samples.

Results

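The DNA replication genes described here are 36 genes of the mouse with roles in DNA replication. They were taken by name from a list that spans origin licensing, the helicase, the polymerases, the clamp and its loader, nucleotide supply and chromatin assembly. All 36 were found by their gene name among the 38340 named genes of the deposited table, and all 36 passed the filter on low values that left 14012 genes for testing. RNA was sequenced from the spleens of mice of the strain given as CB57BL/6NCrl, in 17 libraries. The groups were SLR10 (3 libraries), SLR14 (3), poly(I:C) (3), pppNS (3), a jetPEI vehicle control (2) and naive, untreated mice (3). RIG-I, a sensor of viral RNA in the cytoplasm, stands in the title of the series, and the question the design poses is how the spleen transcriptome differs between these RNAs and the control mice. Per the labels, SLRs were given intravenously as 25 µg of RNA in 200 µl, with the polymer carrier in vivo-jetPEI at an N/P ratio of 8. The same protocol text stands with every library, so how poly(I:C), pppNS and the vehicle were given is not stated separately, and neither the time of collection nor the animals' age is given. Poly(I:C) is a long duplex RNA made in the laboratory that induces antiviral responses, and SLR10, SLR14 and pppNS are called here as the labels call them. Nothing in the labels says that libraries of a group came from separate animals, so the p-values measure the spread between these libraries, which may be partly technical.

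Libraries held 26.5 M to 42.8 M reads (M for mega), and named genes took 15.8 M to 29.6 M of them. The values are the authors' normalized CPM, the reads of a gene relative to a library size in M reads, and 1 read was worth 0.0175 to 0.0431 CPM. The library size includes the authors' normalization factors, so the values of a library do not sum to a common total. They summed to 696096 and 696315 in vehicle, 1058768 to 1124478 in SLR10 and 1484240 in pppNS replicate 3. Markers of B cells (7 of 7), T cells (7 of 7) and spleen stroma (4 of 4) had no value of 0 in any library. Summed T cell markers had 289 to 319 CPM in vehicle, 165 to 175 CPM after SLR10 and 248 to 285 CPM in pppNS, and stroma markers 60.9 to 73.5, 20.5 to 25.8 and 30.6 to 53.5 CPM. Summed B cell markers had 2160 to 2170, 1540 to 1670 and 1620 to 2490 CPM in the same groups, so that pppNS overlapped vehicle. All 8 interferon response genes used as a check of the agents rose after SLR10, SLR14, poly(I:C) and pppNS against vehicle. Whole spleen was sequenced, so fewer cells of a type and less RNA per cell cannot be told apart in any value below.

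DNA replication starts from origins that are licensed in the G1 phase, when the origin recognition complex, Cdc6 and Cdt1 load the ring-shaped MCM helicase onto DNA. In S phase, Cdc45 and the GINS complex join the MCM ring to form the active helicase, DNA polymerase alpha with its primase lays down primers, and polymerases delta and epsilon extend them while held on DNA by the PCNA clamp. Transcription of most of these genes is controlled by E2F factors and peaks as cells enter S phase. In the mouse spleen, which keeps making blood cells in adult life, dividing erythroid precursors of the red pulp and activated lymphocytes are known as cells that carry high levels of this programme.

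Promoter windows of 300 bases, from 250 before to 50 after an annotated start, were available from RefSeq (GRCm38.p6) for 30 of the 36 genes. They were searched on both strands for the E2F motifs TTTCCCGC, TTTGGCGC, TTTCGCGC and TTTGCCGC, whose matches on opposite strands can overlap. A perfect match stood in the windows of 13 of 30 genes (43.3%), namely Orc1, Cdc6, Cdt1, Mcm3, Mcm5, Mcm6, Mcm7, Gins3, Pola1, Pold1, Rfc3, Lig1 and Uhrf1. Of all 27025 genes with a window, 2.6% held such a match. The interferon-stimulated response element written GAAANNGAAA was found in 0 of 30 windows of these genes, against 3.99% of all genes with a window, and the pentamer CCAAT in 18 of 30, against 41.1% of all genes. The 5 windows below are the first with a match in 5 of the 6 roles, in the order in which the genes were listed. They are shown because these genes moved together in most libraries while Rfc3 did not. The Rfc3 window holds 2 matches, and windows of Mcm3, Mcm5, Mcm6 and Mcm7, not shown, also hold more than a single match. Capitals mark the E2F match, each window reads 5′ to 3′ on the strand of its gene, and a match is a description of the letters, not a site shown to be bound.
Orc1 (chr4:108579204-108579503, plus strand): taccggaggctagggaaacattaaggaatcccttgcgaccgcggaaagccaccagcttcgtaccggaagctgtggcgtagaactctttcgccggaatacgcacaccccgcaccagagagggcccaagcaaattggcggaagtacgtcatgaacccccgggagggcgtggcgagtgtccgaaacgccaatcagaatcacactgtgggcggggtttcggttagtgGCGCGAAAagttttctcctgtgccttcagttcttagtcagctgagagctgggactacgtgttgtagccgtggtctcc
Gins3 (chr8:95633309-95633608, plus strand): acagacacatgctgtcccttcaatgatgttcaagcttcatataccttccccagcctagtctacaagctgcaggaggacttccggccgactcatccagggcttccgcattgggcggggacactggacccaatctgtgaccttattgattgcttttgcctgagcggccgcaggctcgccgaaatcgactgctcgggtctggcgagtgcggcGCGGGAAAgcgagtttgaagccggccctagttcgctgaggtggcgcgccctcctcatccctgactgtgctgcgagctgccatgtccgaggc
Pola1 (chrX:93632106-93632405, minus strand): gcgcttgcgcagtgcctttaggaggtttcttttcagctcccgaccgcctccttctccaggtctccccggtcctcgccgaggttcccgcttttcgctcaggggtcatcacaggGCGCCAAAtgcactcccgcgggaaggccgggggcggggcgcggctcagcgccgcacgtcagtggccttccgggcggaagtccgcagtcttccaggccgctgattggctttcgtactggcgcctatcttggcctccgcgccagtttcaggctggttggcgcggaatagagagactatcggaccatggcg
Rfc3 (chr5:151651159-151651458, minus strand): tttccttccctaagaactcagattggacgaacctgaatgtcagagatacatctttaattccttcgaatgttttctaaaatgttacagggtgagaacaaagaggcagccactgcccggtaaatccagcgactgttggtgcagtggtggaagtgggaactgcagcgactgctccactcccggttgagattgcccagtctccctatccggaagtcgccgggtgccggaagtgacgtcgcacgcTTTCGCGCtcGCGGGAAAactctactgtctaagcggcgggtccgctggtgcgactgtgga
Uhrf1 (chr17:56304063-56304362, plus strand): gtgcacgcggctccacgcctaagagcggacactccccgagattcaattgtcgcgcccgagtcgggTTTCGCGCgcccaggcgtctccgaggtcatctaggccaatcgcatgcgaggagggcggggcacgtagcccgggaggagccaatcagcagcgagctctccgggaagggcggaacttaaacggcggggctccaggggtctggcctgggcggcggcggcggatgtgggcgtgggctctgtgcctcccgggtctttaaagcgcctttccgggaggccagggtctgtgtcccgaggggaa

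Across the 17 libraries, most of the 36 genes were high or low together. Their median relative to each gene's own mean was on 1 side of 0 in all SLR10, vehicle and pppNS libraries, SLR14 and poly(I:C) each held libraries on both sides, and naive libraries lay from -0.1 to 0.06. SLR14 replicate 2 stood above both other SLR14 libraries for 36 of 36 genes, with a median ratio of 3.82 to the mean of its 2 mates. The ratio ran from 1.06 for Rfc3, 1.41 for Pola2 and 1.45 for Pold1 to 12.1 for Cdc6 and 14.9 for Orc1, while the median over all genes tested was 1. Poly(I:C) libraries fell in the order replicate 2, replicate 3, replicate 1 from high to low for 35 of 36 genes, with Rfc3 as the exception. Replicate 2 exceeded replicate 1 by a median of 5.84 times, and by 28.5 times for Rrm2. The 3 SLR10 libraries lay close together, with a median ratio of highest to lowest library of 1.12 and at most 1.42 (Gins2). In pppNS the same ratio had a median of 2.25, and replicate 3 was the highest library for 27 of the 36 genes.

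**Figure D1:**
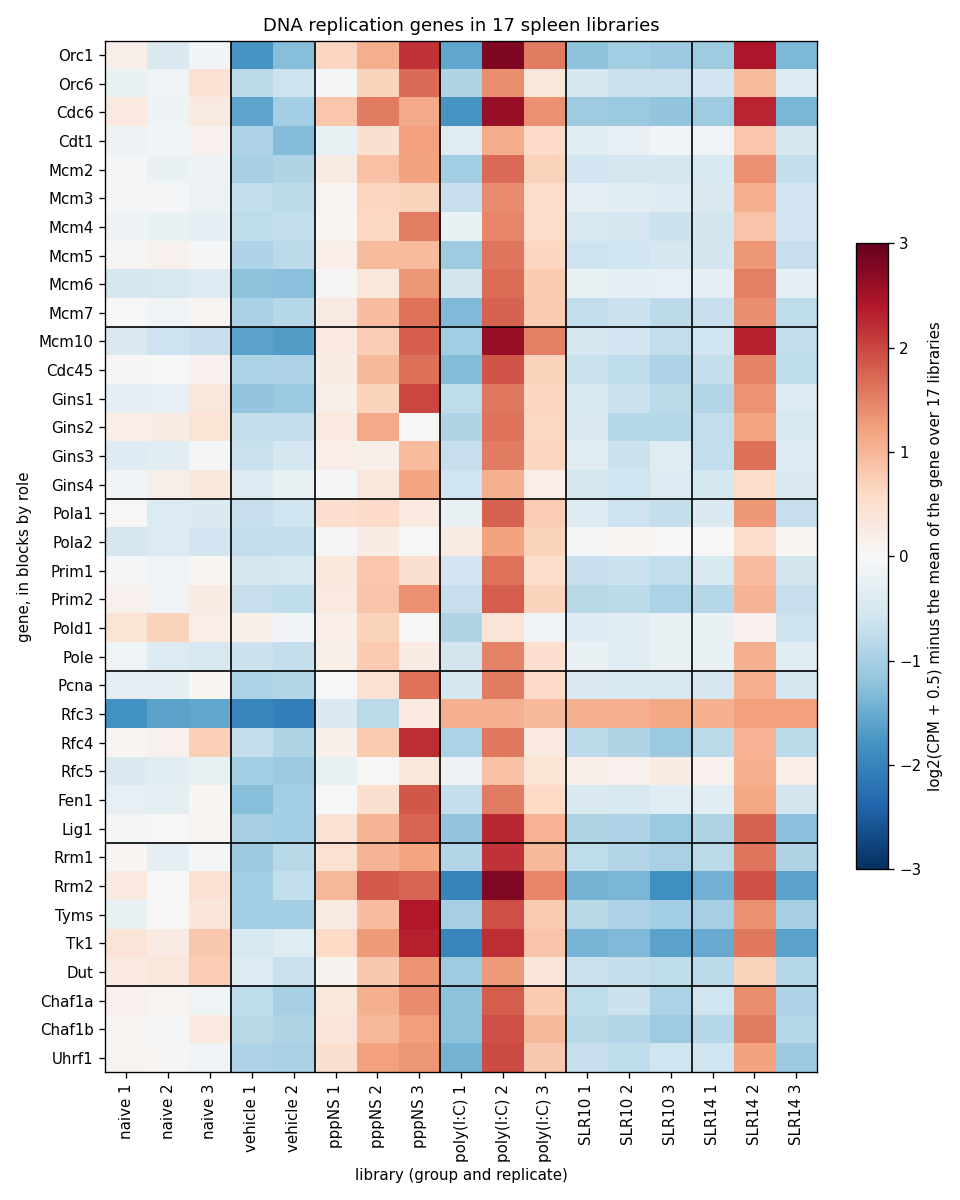
Each row is a replication gene, in blocks by role, each column is a library, and the colour gives log2(CPM + 0.5) minus the mean of that gene over the 17 libraries. SLR14 replicate 2, poly(I:C) replicates 2 and 3 and pppNS replicates 2 and 3 are red in nearly every row, pppNS replicate 1 is paler with a median of 0.21, while the Rfc3 row is red in each of the 9 libraries of SLR10, SLR14 and poly(I:C).

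Erythroid markers were high in the same libraries. Of 24 listed markers 22 were tested, and none of these was at 0 in any library. Their summed level was 34700 CPM or less in SLR14 and 43200 CPM or less in poly(I:C), with lows of 4440 and 3820 CPM in these groups. It ran from 9230 to 75700 CPM in pppNS, from 3130 to 4600 CPM in SLR10, from 3260 to 3900 CPM in vehicle and from 4600 to 13300 CPM in naive spleens. The mean log2 level of the list was 8.9 in SLR14 replicate 2 against 4.7 and 4.86 in its mates, and 9.4, 8.26 and 3.41 in poly(I:C) replicates 2, 3 and 1. It was 7.38, 7.66 and 9.08 in pppNS, 4.82, 4.55 and 4.41 in SLR10, 4.54 and 5.29 in vehicle, and 6.64, 5.87 and 6.84 in naive spleens. Genes of mitosis, a list of 24, followed the same libraries, with a summed level of 1360 to 3010 CPM in pppNS, 355 to 435 CPM in SLR10 and 415 to 503 CPM in vehicle. Markers of neutrophil precursors had summed levels of 18 to 85.5 CPM over all libraries, and no such marker was at 0. Germinal centre B cell markers had summed levels of 142 to 143 CPM after SLR10, 118 to 154 CPM after SLR14 and 80.2 to 131 CPM after poly(I:C), against 65.9 to 76.1 CPM in pppNS, 68 to 74 CPM in vehicle and 47.5 to 94.7 CPM in naive spleens. These sums hide genes that moved apart. In SLR10 against vehicle, 2 of these 7 markers rose and 2 fell by limma, beside 20.2% and 19.2% of all genes. Their median log2 difference from vehicle was -0.49 for SLR10, -0.12 for SLR14 and -0.42 for poly(I:C). Their mean log2 level was 2.5 to 2.74 in SLR10 and 2.67 to 2.76 in vehicle. Plasma cell markers (5 of 6 tested) had 161 to 333 CPM and megakaryocyte markers 73.9 to 190 CPM over all libraries. The part of these cell types in the levels of the replication genes was not tested, but every comparison below was also fitted with the mean erythroid level of each library as a covariate, and its values are given with them.

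**Figure D2:**
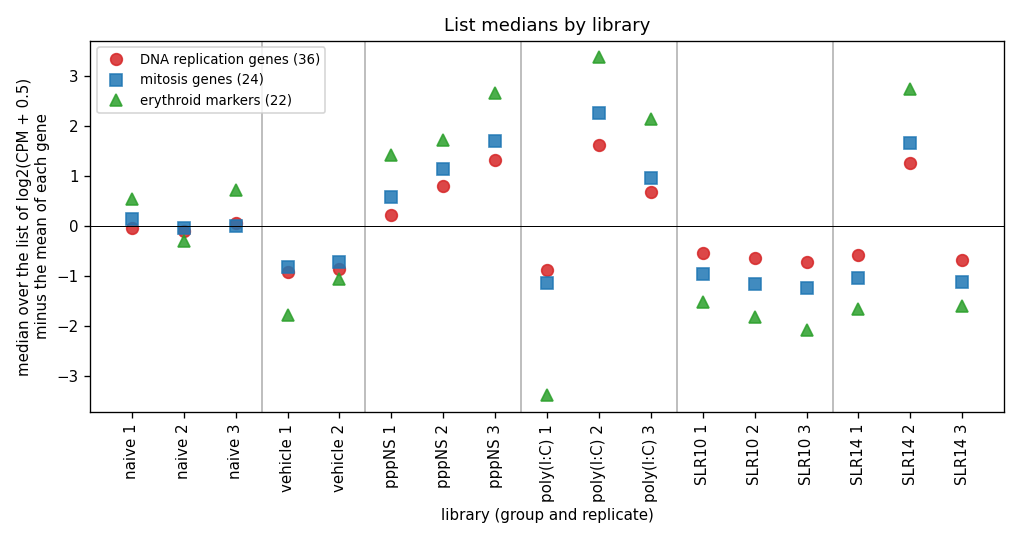
For each library, the median over a list of log2(CPM + 0.5) minus each gene's own mean is plotted for the 36 replication genes, 24 mitosis genes and 22 erythroid markers. The 3 lists rise and fall in the same libraries, with replication genes at -0.89 in poly(I:C) replicate 1 and at 1.62 in replicate 2.

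Licensing genes showed this pattern with a large range. Mcm6, a subunit of the MCM helicase ring, stood at 51.1 and 49.5 CPM in vehicle and at 81.7, 83.7 and 90.2 CPM in naive spleens. It reached 103, 98.2 and 98.6 CPM after SLR10, 97, 338 and 96.2 CPM after SLR14, 79.8, 376 and 204 CPM after poly(I:C), and 121, 150 and 295 CPM after pppNS. Every library of the RNA groups lay above both vehicle libraries, and poly(I:C) replicate 1 was the single such library below all naive ones. Mcm7, another subunit of the same ring, had 41.5 and 45.4 CPM in vehicle and 82.7, 76.3 and 86.7 CPM in naive spleens. After SLR10 it had 48.9, 52.5 and 47 CPM, after SLR14 50.2, 217 and 48.3 CPM, after poly(I:C) 32.5, 282 and 141 CPM, and after pppNS 98.6, 156 and 253 CPM. SLR10 libraries thus lay between vehicle and naive for Mcm7 and above naive for Mcm6, without overlap. Mcm2 gave 31.6 and 33.7 CPM in vehicle and 62, 55.8 and 57 CPM in naive spleens. Treated spleens had 42.9, 45 and 44.1 CPM after SLR10, 46.1, 165 and 38.4 CPM after SLR14, 31, 210 and 104 CPM after poly(I:C), and 77.3, 118 and 148 CPM after pppNS. As for Mcm7, its SLR10 libraries lay between vehicle and naive. Within poly(I:C), Orc1 and Cdc6 had the widest spread of this role, with a ratio of highest to lowest library of 26.77 and 23.05, and Cdt1 the narrowest with 2.78. Orc1, the origin recognition subunit that cycles with cell division, had 1.4 and 2.14 CPM in vehicle and 6.69, 4.29 and 5.59 CPM in naive spleens. Its levels were 2.27, 2.68 and 2.52 CPM after SLR10, 2.56, 34.1 and 2.03 CPM after SLR14, 1.67, 44.6 and 18.6 CPM after poly(I:C), and 9.55, 13.1 and 28.6 CPM after pppNS. Thus its lowest and highest values in the RNA groups came from the same group. Cdt1, which helps to load the MCM ring, had 18.3 and 14 CPM in vehicle, 31.8, 33.6 and 38.5 CPM in naive spleens, 27.4, 30 and 33.3 CPM after SLR10, 33, 62.9 and 24.7 CPM after SLR14, 27.6, 76.7 and 52.5 CPM after poly(I:C), and 30.2, 49.9 and 84.1 CPM after pppNS.

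The genes of helicase activation varied with the same libraries. Mcm10, which helps to start the helicase, had 5.69 and 5.46 CPM in vehicle and 13.4, 11.7 and 11.2 CPM in naive spleens. It had 12.6, 12.2 and 10.9 CPM after SLR10, 12, 93 and 10.8 CPM after SLR14, 8.72, 115 and 53.5 CPM after poly(I:C), and 22.6, 30.8 and 65 CPM after pppNS. SLR10 libraries therefore overlapped naive ones and lay above vehicle. Cdc45, the helicase cofactor, had 5.71 and 5.88 CPM in vehicle and 11.8, 11.6 and 12.6 CPM in naive spleens. It reached 7.11, 6.61 and 5.8 CPM after SLR10, 6.85, 33.1 and 6.64 CPM after SLR14, 4.43, 43.8 and 18.6 CPM after poly(I:C), and 13.6, 23 and 37.2 CPM after pppNS. SLR10 overlapped vehicle for Cdc45 and pppNS lay above both control groups. Gins4, a subunit of the GINS complex, had 12 and 13.8 CPM in vehicle and 15.4, 18.5 and 20.6 CPM in naive spleens. Its values were 11.2, 10.5 and 12 CPM after SLR10, 11.2, 23.9 and 11.9 CPM after SLR14, 10.5, 34.6 and 18.8 CPM after poly(I:C), and 15.5, 20.8 and 37.7 CPM after pppNS. The 4 GINS genes ranged from 2.2 CPM (Gins2 in poly(I:C) replicate 1) to 37.7 CPM (Gins4 in pppNS replicate 3), and Gins4 was lower in every SLR10 library than in both vehicle libraries, although 1 pair of values is equal as rounded here.

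Among the polymerases and the primase, Pola2 and Pold1 varied least between the libraries of SLR14 and of poly(I:C). Pola2, the regulatory B subunit of DNA polymerase alpha (chr19:5940542-5964202, minus strand, GRCm38), had 21.7 and 21.8 CPM in vehicle and 25.8, 27.3 and 24.4 CPM in naive spleens. It had 35.4, 38.9 and 37 CPM after SLR10, 36.1, 52.6 and 38.4 CPM after SLR14, 43.1, 85.2 and 59.3 CPM after poly(I:C), and 35.2, 43 and 36.8 CPM after pppNS. All 12 libraries of the RNA groups lay above all 5 control libraries. Pola1, the catalytic subunit of the same enzyme, did not separate in this way, with 10.9 and 11.6 CPM in vehicle and 17.5, 13.3 and 13 CPM in naive spleens. Pola1 had 13.4, 11.4 and 10.6 CPM after SLR10, 13, 44.3 and 10.9 CPM after SLR14, 15.4, 61.7 and 30.5 CPM after poly(I:C), and 25.6, 26.9 and 21.8 CPM after pppNS. Pold1, the catalytic subunit of polymerase delta, had 42.6 and 36.3 CPM in vehicle and 51.3, 62.1 and 43.8 CPM in naive spleens. It had 29.3, 29.9 and 32.9 CPM after SLR10, 33, 41.8 and 24.8 CPM after SLR14, 20.2, 50.1 and 35.4 CPM after poly(I:C), and 43.9, 61.6 and 38 CPM after pppNS. SLR10 libraries were below every control library for Pold1, the reverse of Pola2. The same held for Prim1, with 10.2 to 11 CPM after SLR10 and at least 12.2 CPM in the controls. It held for Prim2 too, with 5.91 to 6.64 CPM after SLR10 and at least 6.81 CPM in the controls.

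The clamp and its loader held the gene with the largest difference from vehicle after SLR10. Pcna, the sliding clamp, had 59.1 and 61.7 CPM in vehicle and 94.2, 94.5 and 120 CPM in naive spleens. SLR10 lay between these groups, and the levels were 84.4, 81.5 and 81.5 CPM after SLR10, 81.3, 245 and 79.8 CPM after SLR14, 78.9, 338 and 172 CPM after poly(I:C), and 115, 157 and 356 CPM after pppNS. Rfc3, a small subunit of the replication factor C clamp loader (chr5:151642756-151651242, minus strand), had 10.3 and 9.49 CPM in vehicle and 11.4, 13.2 and 13.7 CPM in naive spleens. It had 87, 87.4 and 93.1 CPM after SLR10, 86.2, 96.8 and 96.6 CPM after SLR14, 86.2, 86.6 and 80.9 CPM after poly(I:C), and 30.2, 23.2 and 50.4 CPM after pppNS. Control, pppNS and the other RNA libraries formed 3 ranges of Rfc3 with no overlap, and the 9 libraries of SLR10, SLR14 and poly(I:C) differed little, whether their other replication genes were high or low. Rfc5, another small subunit (chr5:117378103-117389047, minus strand), had 12.2 and 11.5 CPM in vehicle, 18.4, 19.9 and 21.3 CPM in naive spleens and 27.8, 27.4 and 29.4 CPM after SLR10. It had 27.5, 53 and 28.7 CPM after SLR14, 22.4, 46.5 and 33.4 CPM after poly(I:C), and 21.3, 25.4 and 31.4 CPM after pppNS. Rfc4, also a small subunit, had 7.08 and 6.22 CPM in vehicle and 12.6, 13.2 and 20.1 CPM in naive spleens. Rfc4 gave 6.78, 6.23 and 5.26 CPM after SLR10, 6.58, 25.4 and 6.64 CPM after SLR14, 5.96, 36.6 and 14.7 CPM after poly(I:C), and 13.4, 20.9 and 57.4 CPM after pppNS. Its SLR10 libraries overlapped vehicle, unlike those of Rfc3 and Rfc5. For the enzymes that finish lagging-strand fragments, Lig1 (DNA ligase I) had 20.5 and 20 CPM in vehicle and 39.8, 41.5 and 43.5 CPM in naive spleens. Levels of Lig1 were 21.9, 21.4 and 18.8 CPM after SLR10, 22, 142 and 17.1 CPM after SLR14, 17.9, 201 and 85.7 CPM after poly(I:C), and 56.3, 84.9 and 139 CPM after pppNS. The flap nuclease Fen1, which removes primer ends, had 19.1 and 22.9 CPM in vehicle and 39.4, 39.1 and 49 CPM in naive spleens. Fen1 reached 34.8, 33.3 and 36.2 CPM after SLR10, 36.8, 106 and 31.9 CPM after SLR14, 28.4, 140 and 71.8 CPM after poly(I:C), and 47.4, 65.4 and 172 CPM after pppNS. SLR10 libraries thus lay above vehicle for Fen1 and overlapped it for Lig1.

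Of the 5 nucleotide supply genes, Rrm2, Tk1 and Dut were lower in every SLR10 library than in both vehicle libraries. Rrm2, the cell-cycle-regulated subunit of ribonucleotide reductase (chr12:24708241-24714146, plus strand), had 24.7 and 30.6 CPM in vehicle and 62.8, 50.9 and 69 CPM in naive spleens. It had 18.9, 19.4 and 14 CPM after SLR10, 18.6, 193 and 16.4 CPM after SLR14, 12.5, 356 and 143 CPM after poly(I:C), and 103, 185 and 174 CPM after pppNS. SLR10 libraries lay below vehicle, and pppNS libraries all above naive. Tk1, the thymidine kinase of S phase, had 19.4 and 20.9 CPM in vehicle and 35.9, 32.3 and 48.1 CPM in naive spleens. Tk1 levels were 10, 10.5 and 8.64 CPM after SLR10, 9.18, 82.9 and 8.66 CPM after SLR14, 6.49, 128 and 49.7 CPM after poly(I:C), and 41.4, 66.6 and 139 CPM after pppNS. As for Rrm2, SLR10 lay below both control groups. Rrm1, the large reductase subunit, had 40 and 47.6 CPM in vehicle and 89.3, 70.2 and 82.8 CPM in naive spleens. Rrm1 gave 50, 45.9 and 43.4 CPM after SLR10, 48.5, 262 and 45.1 CPM after SLR14, 45.8, 386 and 167 CPM after poly(I:C), and 118, 173 and 193 CPM after pppNS. Unlike Rrm2, it overlapped vehicle after SLR10. Dut, the dUTPase, had 18.5 and 15.6 CPM in vehicle and 15.5, 14.9 and 14.6 CPM after SLR10, and Tyms, the thymidylate synthase, 7.45 and 7.51 against 8.69, 8.07 and 7.49 CPM, with overlap.

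The 3 chromatin assembly genes followed the majority. Uhrf1, which couples DNA methylation to replication, had 20.7 and 20.3 CPM in vehicle and 42.4, 41.1 and 37.9 CPM in naive spleens. With RNA, Uhrf1 had 24.7, 23.6 and 26.4 CPM after SLR10, 26.5, 93.4 and 18.4 CPM after SLR14, 14.7, 156 and 70.5 CPM after poly(I:C), and 55.9, 93.9 and 101 CPM after pppNS. Its SLR10 libraries lay between vehicle and naive. Chaf1a, the large subunit of chromatin assembly factor 1, had 9.08 and 7.67 CPM in vehicle and 17.2, 16.7 and 14.3 CPM in naive spleens. Chaf1a levels were 9.06, 9.87 and 7.99 CPM after SLR10, 10.3, 42.3 and 8.02 CPM after SLR14, 6.41, 57.1 and 27.8 CPM after poly(I:C), and 20.2, 33.9 and 43.1 CPM after pppNS. Chaf1b, its partner, had 6.79 and 6.4 CPM in vehicle and 13.1, 11.9 and 15.3 CPM in naive spleens. Chaf1b levels were 6.75, 6.52 and 5.69 CPM after SLR10, 6.66, 37.2 and 6.64 CPM after SLR14, 5, 48.7 and 24.6 CPM after poly(I:C), and 16.3, 25.3 and 30.4 CPM after pppNS. For both Chaf1 genes SLR10 overlapped vehicle and pppNS lay above both groups.

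**Figure D3:**
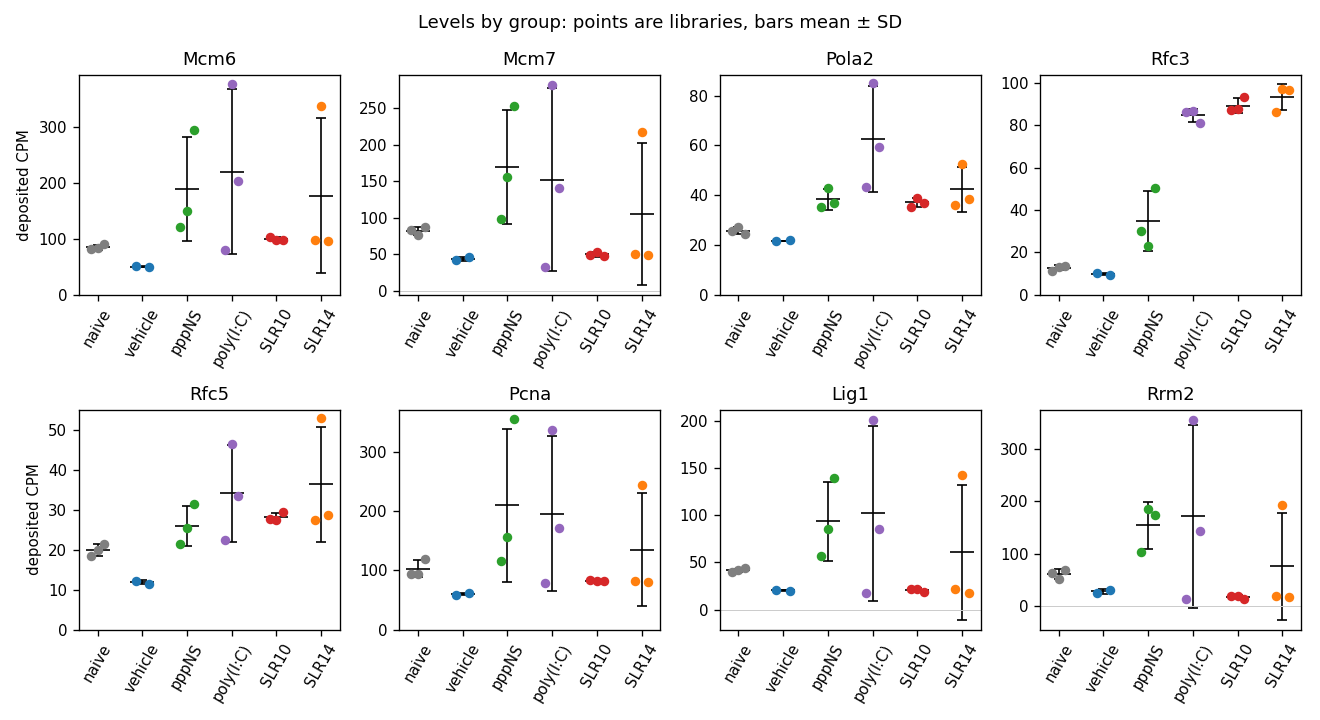
Deposited CPM of 8 replication genes by group, with points for libraries and bars for the mean and SD (n = 3, vehicle n = 2). Rfc3 separates SLR10, SLR14 and poly(I:C) from the controls without overlap, whereas for Mcm7, Lig1 and Rrm2 single SLR14 and poly(I:C) libraries lie far above their mates.

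Levels between genes can be compared only per length. Per kilobase of annotated exon (GENCODE vM21), Pcna had the highest level in naive spleens, 42.8 CPM per kb, followed by Rrm2 at 22 and Mcm7 at 18.5 CPM per kb, and Pole the lowest at 1.2 CPM per kb. After SLR10, Rfc3 at 24.7 CPM per kb came after Pcna (34.4) and ahead of Mcm6 (21.4), whereas in vehicle Rfc3 had 2.74 CPM per kb. Annotated exons of 12 of the 36 genes share bases with another gene, in 11 cases only with one on the opposite strand. The strand setting of the counting is not stated, so reads of Fen1 (1909 of 2422 exon bases shared with Gm10143), Gins2 (2758 of 4097 with Gse1), Chaf1a (4648 of 8854 with Ubxn6) and, over smaller shares of their exons, Orc1, Orc6, Cdc45, Pole, Rfc4, Rfc5, Lig1, Tk1 and Mcm7 could include some from their neighbours. Pcna and Tyms have annotated pseudogene copies, so their values are uncertain as well.

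SLR10 against vehicle changed few of the 36 genes. Rfc3 rose 8.63-fold, from 9.89 ± 0.565 (SD, n = 2) to 89.2 ± 3.37 CPM (SD, n = 3), a log2 difference of 3.11 ± 0.23 (SE) with an adjusted p of 2.47e-07 by limma with Benjamini-Hochberg adjustment over all genes tested. Rfc5 rose 2.32-fold (log2 difference 1.21 ± 0.29, adjusted p = 0.00432, limma) and Pola2 1.69-fold (0.76 ± 0.23, adjusted p = 0.0162, limma). No other member passed the threshold of 0.05, so 3 of 36 were higher and 0 lower, beside 20.2% of all genes tested that were called higher. The median log2 difference over the 36 genes was 0.17, with 27 positive and 9 negative, beside a median of -0.01 over all genes tested. The lowest was Tk1, at 9.73 ± 0.981 CPM against 20.2 ± 1.04 CPM, a log2 difference of -1.02 ± 1.03 (adjusted p = 0.488, limma). Library by library, 17 members were higher in all 3 SLR10 libraries than in both vehicle libraries, 7 were lower and 12 overlapped, beside 40.1% of all genes tested that were higher in this sense and 40.6% that were lower. The 7 lower were Gins4, Prim1, Prim2, Pold1, Rrm2, Tk1 and Dut.

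The limma model pools the spread of all 6 groups, and the spread of these genes within SLR14 and poly(I:C) enters it. With only the SLR10 and vehicle libraries in the model, 19 of 36 members were called, 16 higher beside 36.4% of all genes and 3 lower beside 35.8%, with Tk1 among the lower (adjusted p = 5.06e-05, limma). With the erythroid covariate 11 were called, 10 higher beside 22.5% of all genes and 1 lower beside 22.8%, and the median difference was 0.31. The Pola2 call was lost without vehicle replicate 1 (adjusted p = 0.0816) or vehicle replicate 2 (adjusted p = 0.0825, limma). Scaling matters for these small differences. Reads were also scaled to the total in named genes alone, which leaves out the authors' normalization factors as well as the unnamed lines. The median of all genes tested then moved to -0.5, and 9 of 36 members were positive and 27 negative. In that scaling 9.65% of all genes were called higher and 35.0% lower, beside 20.2% and 19.2% in the main scaling, and the Pola2 difference fell to 0.26 while Rfc3 and Rfc5 remained called.

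**Figure D4:**
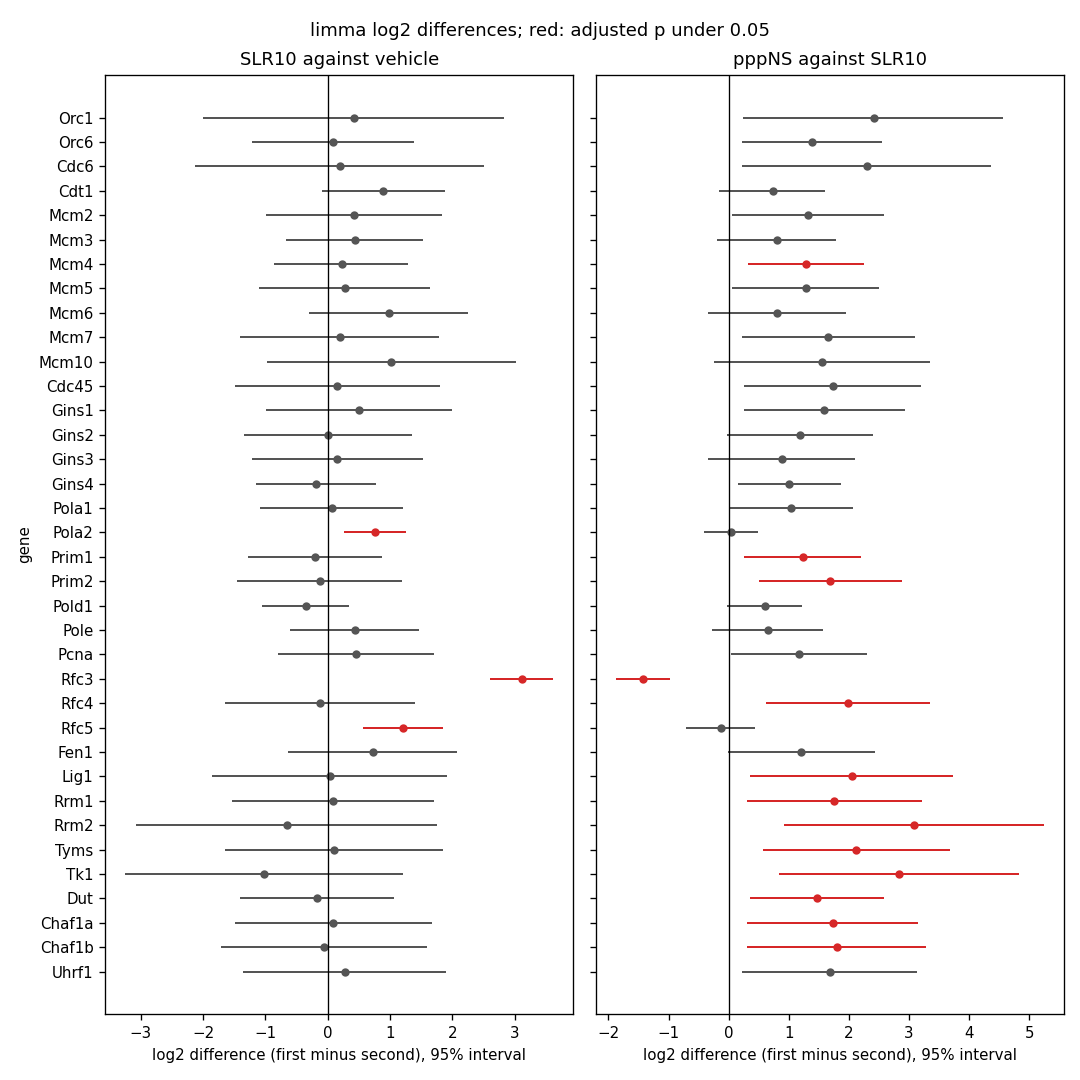
The limma log2 difference of each gene with its 95% interval is shown for SLR10 against vehicle and for pppNS against SLR10, red where the adjusted p is under 0.05. Rfc3, Rfc5 and Pola2 are red in the first panel, and 12 genes to the right and Rfc3 to the left of 0 in the second.

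SLR14 and poly(I:C) were compared with the same 2 vehicle libraries, so these values are not independent of those for SLR10. Against vehicle, SLR14 raised Rfc3 (log2 difference 3.17 ± 0.23, adjusted p = 1.9e-07), Rfc5 (1.51 ± 0.29, adjusted p = 0.000934), Pola2 (0.93 ± 0.23, adjusted p = 0.00492) and Cdt1 (1.19 ± 0.45, adjusted p = 0.0499, limma), 4 of 36 members beside 19.3% of all genes called higher. Their median was 0.85 with all SLR14 libraries and 0.15 without SLR14 replicate 2, when 3 members were called and the Cdt1 difference was 0.82 (adjusted p = 0.177, limma). Cdt1 also lost its call without any of SLR14 replicate 1 (adjusted p = 0.073), vehicle replicate 1 (0.104) and vehicle replicate 2 (0.25). Poly(I:C) against vehicle gave 7 of 36 members higher, beside 18.6% of all genes. These were Rfc3 (3.03 ± 0.23), Mcm10 (2.67 ± 0.93), Mcm6 (1.85 ± 0.59), Cdt1 (1.56 ± 0.45), Pola2 (1.45 ± 0.23), Rfc5 (1.42 ± 0.29) and Mcm4 (1.37 ± 0.49). The median over the 36 genes was 1.4, and Pold1 was the lowest at -0.25 ± 0.32. This count rested on single libraries. Without poly(I:C) replicate 1, the lowest library of its group for 35 of the 36 genes, 32 of 36 members were higher beside 21.1% of all genes. The median was then 1.98. Leaving this library out raised the group mean and took spread of these same genes out of the model, so the added calls follow in part from that. Without poly(I:C) replicate 2 or 3 the counts were 3 and 4, and without vehicle replicate 1 or 2 they were 4 and 3. Pold1 turned to 0.1 without poly(I:C) replicate 1. With the erythroid covariate the median of the 36 genes was 0.3 for SLR14 and 0.49 for poly(I:C), with 8 and 11 members called beside 44.5% and 38.8% of all genes in either direction.

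Between SLR14 and SLR10 no difference in these genes was found with limma. The threshold was passed by 0 of the 36 members, beside 0.0% of all genes called, and the unadjusted p was under 0.05 for 0 members. edgeR and DESeq2 also called 0, with 3 and 8 members at an unadjusted p under 0.05. The 95% interval for Rfc3, with a log2 difference of 0.06, ran from -0.37 to 0.5, and that for Rrm2, with 1.16 as the largest difference, from -0.99 to 3.31. The median difference was 0.63 with all libraries and -0.02 without SLR14 replicate 2, when 14 members were positive and 22 negative. With the erythroid covariate it was -0.03, with 10 positive and 26 negative. At this spread a difference in Rrm2 within its interval was not detectable.

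pppNS gave higher levels of nearly all members than vehicle, with few calls. Of the 36 genes, 35 were higher in all 3 pppNS libraries than in both vehicle libraries, beside 22.9% of all genes tested, and Pold1 overlapped. The median log2 difference was 1.71, beside a median near 0 for all genes tested, from 0.25 ± 0.32 for Pold1 to 2.82 ± 1.12 for Orc1. At the threshold only Rfc3 was called (1.68 ± 0.23, adjusted p = 0.000694, limma), 1 of 36 beside 2.95% of all genes, while 29 members had an unadjusted p under 0.05. When SLR14 replicate 2 and poly(I:C) replicates 2 and 3, chosen with their levels of these genes known, were left out of the pooled spread together, 34 of 36 members were higher beside 8.98% of all genes. Leaving these 3 libraries out took spread of these same genes out of the model, so the added calls follow in part from that choice. On the recovered reads DESeq2 called 17 members higher beside 6.43% of all genes, and edgeR 3 beside 2.78%. With only the pppNS and vehicle libraries in the model no member was called, with 34 at an unadjusted p under 0.05, and no gene of all those tested was called either. With the erythroid covariate the median difference was 0.3 and the Pold1 difference -0.18.

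pppNS against SLR10 was the comparison with the most calls. In the main scaling 12 of 36 members rose beside 19.9% of all genes tested, and 1 fell beside 20.4%. All 5 nucleotide supply genes were among the 12, with Rrm2 at 154 ± 44.4 CPM in pppNS and 17.4 ± 2.98 CPM in SLR10 (SD, n = 3 each), an 8.43-fold difference (log2 3.08 ± 1.0, adjusted p = 0.026, limma). Tk1 rose 7.17-fold (2.84 ± 0.92, adjusted p = 0.0257), Tyms 4.35-fold (2.12 ± 0.72, adjusted p = 0.0315), Rrm1 3.38-fold (1.76 ± 0.67, adjusted p = 0.0499) and Dut 2.76-fold (1.47 ± 0.51, adjusted p = 0.0344, limma). The other calls were Mcm4 (1.28 ± 0.44) of the licensing genes, the primase subunits Prim1 (1.24 ± 0.44) and Prim2 (1.69 ± 0.55), Rfc4 (1.98 ± 0.63), Lig1 (2.05 ± 0.78), Chaf1a (1.73 ± 0.65) and Chaf1b (1.8 ± 0.68). No gene of helicase activation passed the threshold, with differences from 0.88 (Gins3) to 1.73 (Cdc45) and 3 of 6 at an unadjusted p under 0.05. Rfc3 fell, by a log2 difference of -1.43 ± 0.2 (adjusted p = 0.000135, limma). Rfc5 and Pola2 differed by -0.13 ± 0.26 and 0.04 ± 0.2, with overlapping libraries. In all, 32 members were higher in every pppNS library than in every SLR10 library, beside 28.5% of all genes, and the median difference was 1.36.

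These calls depended on the libraries in the model. Without SLR10 replicate 1, 2 or 3, or without pppNS replicate 3, 1 member was called, which was Rfc3. Without pppNS replicate 2 there were 4 calls, and without pppNS replicate 1 there were 20. With SLR14 replicate 2 and poly(I:C) replicates 2 and 3 left out, 32 members rose beside 23.8% of all genes, and Rfc3 fell. Those libraries were chosen with their levels of these genes known, and leaving them out takes spread of the same genes out of the model. With the erythroid covariate, 0 members rose and 2 fell beside 12.4% of all genes, 6 had an unadjusted p under 0.05, and the median difference was -0.04. In that model Rrm2 differed by 0.46 (adjusted p = 0.305) and Tk1 by 0.42 (adjusted p = 0.252, limma). Erythroid markers themselves rose in pppNS against SLR10 for 10 of 22 genes, beside 19.9% of all genes tested. Their median log2 difference was 3.81 over the 22. The share of the difference in replication genes that goes with red cell precursors was not tested. Mitosis genes were high in the same libraries as erythroid markers, so the covariate does not separate these lists. Against poly(I:C), pppNS was lower for Rfc3 (-1.35 ± 0.2, adjusted p = 0.000271) and Pola2 (-0.65 ± 0.2, adjusted p = 0.0294, limma), 2 of 36 members beside 15.4% of all genes called lower. The Pola2 call was lost without pppNS replicate 1 (adjusted p = 0.0685) or 3 (0.0533) and without poly(I:C) replicate 2 (0.116) or 3 (0.0655, limma), and the Rfc3 call with only the 2 groups in the model (adjusted p = 0.0547, limma). The median difference over the 36 genes was 0.3, and -0.19 with the erythroid covariate, when 4 members were called.

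Vehicle spleens had lower levels of every member than naive spleens. All 36 genes were lower in both vehicle libraries than in all 3 naive ones, beside 27.5% of all genes tested. The median log2 difference was -0.9, beside a median near 0 for all genes tested, from -0.24 ± 0.23 for Pola2 to -1.45 ± 1.07 for Cdc6. By limma 0 of 36 passed the threshold, beside 0.05% of all genes, and 2 members had an unadjusted p under 0.05. edgeR and DESeq2 called 0 as well. Erythroid markers were lower in vehicle too, for 22 of 22 genes, with 0 called, and with the erythroid covariate the median difference of the replication genes was -0.17. With naive in place of vehicle spleens, the median difference after SLR10 was -0.67 in place of 0.17, and 27 members were lower in every SLR10 library than in every naive library, 4 were higher and 5 overlapped, beside 38.2% of all genes that were lower and 35.6% that were higher in this sense. By limma Rfc3 (2.76 ± 0.2) and Pola2 (0.51 ± 0.2, adjusted p = 0.0493) rose, 2 members beside 25.7% of all genes, and Pold1 fell (-0.75 ± 0.29, adjusted p = 0.0419, limma), 1 member beside 23.6%. Rfc5 differed by 0.5 ± 0.26 (adjusted p = 0.132, limma). Rfc3, Pola2 and Rfc5 were higher in every SLR10, SLR14 and poly(I:C) library than in every control library. Rfc3 and Pola2 were called against both control groups for each of these RNAs. Rfc5 was called against naive spleens after SLR14 (0.79 ± 0.26, adjusted p = 0.0224) and poly(I:C) (0.71 ± 0.26, adjusted p = 0.0399, limma), but not after SLR10. Against naive spleens the median for SLR14 was -0.01 in place of 0.85, with 17 members positive and 19 negative. It was 0.53 in place of 1.4 for poly(I:C), and 0.88 in place of 1.71 for pppNS. For pppNS against naive, 3 members had an unadjusted p under 0.05 by limma, in place of 29 against vehicle. Among all 14012 genes, 3405 and 3251 had such a p.

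Subunits of a complex did not keep the same ratio across groups. The ratios that follow were chosen after the values were seen and are given as a description. Mcm6 over the mean of Mcm2, Mcm3, Mcm4, Mcm5 and Mcm7, which form the ring with it, was 2.06 to 2.2 in SLR10, 2.08 to 2.25 in SLR14 and 1.8 to 2.08 in poly(I:C). In pppNS it was 1.25 to 1.79, in vehicle 1.28 to 1.39 and in naive spleens 1.23 to 1.43. This ratio was as high in SLR14 replicate 2 (2.13) as in SLR14 replicates 1 and 3 (2.08 and 2.25), although Mcm6 itself stood at 338 CPM there against 97 and 96.2 CPM. Rfc3 over Rfc4 was 12.8, 14 and 17.7 in SLR10 and 1.45 and 1.53 in vehicle, but fell to 3.8 in SLR14 replicate 2 and 2.36 in poly(I:C) replicate 2. Pola2 over Pola1 was 2.65 to 3.49 in SLR10, 1.87 and 1.99 in vehicle and 1.38 to 1.69 in pppNS. Rrm2 over Rrm1 was 0.323 to 0.423 in SLR10, 0.618 and 0.643 in vehicle, 0.703 to 0.834 in naive spleens and 0.878 to 1.07 in pppNS. Within poly(I:C) it was 0.273 in replicate 1 and 0.924 and 0.856 in replicates 2 and 3, so the 2 reductase subunits differed between these libraries by unequal factors.

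**Figure D5:**
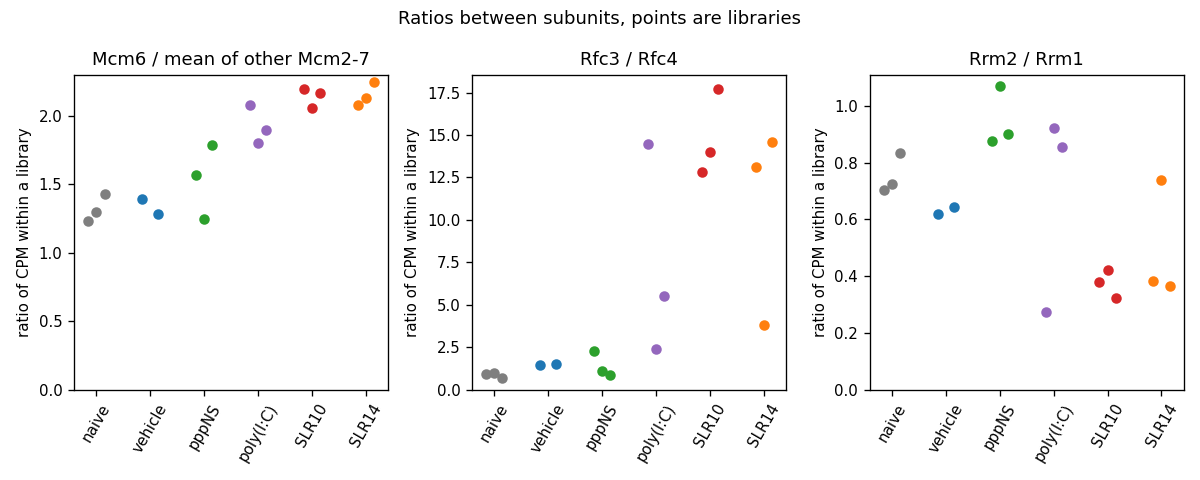
Ratios of CPM within each library are plotted by group for Mcm6 over the mean of the other Mcm2 to Mcm7 genes, Rfc3 over Rfc4 and Rrm2 over Rrm1, each point being a library. The Mcm6 ratio is 1.8 or more in the 9 libraries of SLR10, SLR14 and poly(I:C) and 1.79 or less in the others, and Rrm2 over Rrm1 is 0.423 or less in SLR10, SLR14 replicates 1 and 3 and poly(I:C) replicate 1.

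Other genes of the pathway were taken from lists of general knowledge. Of 45 other replication factors, 5 rose and 2 fell in SLR10 against vehicle, beside 20.2% and 19.2% of all genes, and 13 rose and 2 fell in pppNS against SLR10, beside 19.9% and 20.4%. The same shares of all genes stand beside the counts of the lists that follow. Mcmbp, a binding partner of MCM proteins, had 100 ± 1.58 CPM in SLR10 and 51.7 ± 1.43 CPM in vehicle (log2 difference 0.94 ± 0.14, adjusted p = 0.000113, limma). The small subunits of polymerase delta moved apart after SLR10. Pold2 rose to 29.6 ± 1.02 from 13 ± 0.191 CPM (1.15 ± 0.18, adjusted p = 0.000153), and Pold4 fell to 19.9 ± 0.479 from 41.6 ± 4.65 CPM (-1.04 ± 0.19, adjusted p = 0.000482, limma). Cdc7, the kinase that fires licensed origins, fell to 7.65 ± 0.197 from 16.8 ± 0.487 CPM (-1.09 ± 0.35, adjusted p = 0.0234, limma).

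Among 27 E2F and S phase regulators, 7 rose and 4 fell in SLR10 against vehicle, and 13 rose and 3 fell in pppNS against SLR10. Myc, a transcription factor that drives entry into the cycle, had 356 ± 50.6 CPM in SLR10, 42.8 ± 8.57 CPM in vehicle and 92.6 ± 27.7 CPM in pppNS. Its log2 difference was 3.04 ± 0.25 in SLR10 against vehicle (adjusted p = 7.49e-07) and -1.97 ± 0.23 in pppNS against SLR10 (adjusted p = 3.23e-05, limma). Rbl1, the pocket protein p107 that restrains E2F factors, had 132 ± 5.31 CPM in SLR10 and 25.7 ± 2 CPM in vehicle (2.34 ± 0.18). Ccnd2, which encodes cyclin D2, had 593 ± 27 CPM in SLR10 and 92.8 ± 3.34 CPM in vehicle (2.67 ± 0.45). Rbl1 and Ccnd2 were both lower in pppNS than in SLR10, by log2 differences of -1.19 ± 0.16 and -2.27 ± 0.4. With Myc they were the 3 of 27 regulators that fell there, while 13 rose. The median difference of the 27 was 0.71, beside 1.36 for the replication genes.

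Of 14 listed brakes on S phase and on deoxynucleotide pools, 13 were tested and Cdkn2a was not. In SLR10 against vehicle 3 rose and 1 fell, and in pppNS against SLR10 3 rose and 3 fell. Samhd1, the enzyme that degrades deoxynucleotides and is known as a restriction factor, had 3480 ± 79 CPM in SLR10, 371 ± 0.301 CPM in vehicle and 899 ± 331 CPM in pppNS. It rose 9.38-fold in SLR10 against vehicle (log2 3.23 ± 0.27, adjusted p = 8.31e-07, limma). Cdkn1a, which encodes the cyclin-dependent kinase inhibitor p21, had 140 ± 11 CPM in SLR10, 4.89 ± 0.441 CPM in vehicle and 31.3 ± 13.9 CPM in pppNS (SLR10 against vehicle 4.7 ± 0.35, adjusted p = 2.85e-07, limma). Cdkn1b, which encodes p27, fell to 41.6 ± 4.21 CPM in SLR10 from 88.6 ± 2.08 CPM (-1.09 ± 0.21, adjusted p = 0.000904, limma). Atr, the kinase that senses stalled forks, rose to 69.9 ± 2.32 from 30.4 ± 2.35 CPM (1.19 ± 0.25, adjusted p = 0.00168, limma).

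Mitosis genes gave 0 calls of 24 in SLR10 against vehicle by limma, with 0 at an unadjusted p under 0.05, a median difference of -0.34 and 20 of 24 negative. In pppNS against SLR10, 18 rose and 0 fell, with a median of 2.22 beside 1.36 for the replication genes. Cenpa, the centromeric histone H3, had 10 ± 0.936 CPM in SLR10, 23.1 ± 1.02 CPM in vehicle and 80.5 ± 50.5 CPM in pppNS (pppNS against SLR10 2.77 ± 0.78, adjusted p = 0.0136, limma). Cdc20, the activator of the anaphase-promoting complex, had 6.1 ± 0.496, 9.36 ± 1.61 and 34.5 ± 13.8 CPM in the same groups, and Bub1, a spindle checkpoint kinase, 4.91 ± 0.586, 6.8 ± 0.466 and 25.5 ± 9.96 CPM.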

How the data were processed

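RNA sequencing of 17 spleen libraries was analysed from a single deposited table. Its signal values are normalized CPM, which the authors named as made with edgeR in the title of the deposited table. FastQC, TopHat, TopHat2 2.0.6, SAMtools 1.4, HTSeq and edgeR and the builds GRCm38 and mm10 stand in the submitters' processing notes, and the strand setting and the annotation version are not given in the sources used here. Libraries were made with a stranded mRNA kit from 500 ng of total RNA, per the labels' protocols. Of 39184 lines, 5 without a name, 699 named #N/D and 27 whose names had turned into date numbers were left out, and of 87 repeated names the line with the highest mean was kept, which left 38340 genes. Of the sum of a library, 28.1% to 46.1% stood in the 5 unnamed lines. Whole reads could be recovered, since 99.99% or more of the values of a library were whole multiples of 1 read within 0.01 reads.

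The 14012 genes that reached 1 CPM in 2 or more libraries were taken as log2(CPM + 0.5) and fitted with limma 3.58.1 (R 4.3.3), with 1 model for all 17 libraries, a mean-variance trend and Benjamini-Hochberg adjustment within each comparison, threshold 0.05. Fold changes are on this log2(CPM + 0.5) scale, which understates changes of low genes, and errors are SE for differences and SD for CPM. With 2 or 3 libraries in a group, precision rests on the spread pooled over groups. Tests on simulated data recovered 21% of 2-fold and 70% of 4-fold changes for SLR10 against vehicle (13996 genes, 2.2% false calls), and 27% and 85% for pppNS against SLR10 (13998 genes, 3.4%). Only 100 genes were changed by each factor, giving 93 and 116 calls, against 5520 and 5653 in the data. With so few changed genes the adjusted p is stricter, so recovery in the data may be higher. The genes were drawn at random, so the spread of these 36 was not simulated. edgeR 4.0.16 and DESeq2 1.42.0 were run on the recovered reads as alternatives, beside other pseudocounts, filters, scalings, controls, an erythroid covariate, a replicate block and libraries left out. Scaling to the reads in named genes alone was added after the data were seen.

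The 36 members, the other gene lists and the libraries left out together were chosen with earlier results of these data known. For each role, the 3 members with the highest mean over all libraries are given library by library, and members with the highest or lowest difference in a comparison or whose call changes under an alternative are named. From each other list, up to 3 genes with the smallest adjusted p in SLR10 against vehicle and in pppNS against SLR10 are named. Positions, exon lengths and overlaps come from GENCODE vM21 (GRCm38) and promoter windows from RefSeq (GRCm38.p6). For 6 members no window was used. Protein sequences were not used here.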

Additional observations from a re-analysis of the deposited data

How the results depend on the processing

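Both the number of the 36 replication genes past the threshold and the direction of small differences depended on the model. Of the 36 differences, 27 were positive in SLR10 against vehicle, 9 with scaling to the reads in named genes and 5 against naive spleens. With the erythroid covariate, positive differences went from 36 to 10 in SLR14 against SLR10, from 34 to 16 in pppNS against SLR10 and from 28 to 12 in pppNS against poly(I:C). For counts of calls, SLR10 against vehicle gave 3 genes, 11 with the erythroid covariate, 6 with SLR14 replicate 2 and poly(I:C) replicates 2 and 3 left out together, and 19 with only the 2 groups in the model. Over all 14012 genes, SLR10 against vehicle gave 5520 calls, or 6344 with the covariate. With only the 2 groups it gave 9676 of 13403. SLR14 against vehicle gave 4 (beside 5422 of all 14012 genes) and 8 with the covariate (6235). It gave 2 with scaling to the reads in named genes (6879 of 15028) and 9 with DESeq2. Poly(I:C) against vehicle gave 7 (beside 5030 of all 14012 genes) and 11 with the covariate (5440). It gave 3 with scaling to the reads in named genes (6928 of 15028) and 4 with only the 2 groups (4954 of 13414). Counts were 3 against naive spleens (6443 of 14012), 16 with edgeR and 29 with DESeq2. pppNS against vehicle gave 1, then 2 with median-of-ratios scaling, 3 with quantile scaling, 34 with the 3 libraries left out, 0 with only the 2 groups, 2 against naive and vehicle together, 3 with edgeR and 17 with DESeq2. pppNS against SLR10 gave 13, then 5 with no filter, 25 with scaling to the reads in named genes, 2 with the covariate, 33 with the 3 libraries left out, 27 with only the 2 groups, 20 with edgeR and 27 with DESeq2. pppNS against poly(I:C) gave 2, then 1 with quantile scaling, 1 with scaling to the reads in named genes, 4 with the covariate, 31 with the 3 libraries left out and 0 with only the 2 groups. The 31 compare pppNS with poly(I:C) replicate 1 alone, a library left over by a choice made on the levels of these genes, so they say nothing about poly(I:C) as a group. Counts with the 3 libraries left out rest on a choice that took spread of these genes out of the model. Over all 14012 genes, pppNS against vehicle gave 603 calls and pppNS against SLR10 5653, or 3272 with the covariate. pppNS against poly(I:C) gave 3761, or 4213 with the covariate. With only the 2 groups, calls were 0 of 13259, 3946 of 13350 and 684 of 13309 genes in the same order. Scaling to the reads in named genes gave 5718 calls of 15028 genes in pppNS against SLR10 and 4300 in pppNS against poly(I:C). With no filter, pppNS against SLR10 gave 5538 of 25070. Quantile scaling gave 3252 of 14012 in pppNS against poly(I:C) and 698 in pppNS against vehicle. The latter gave 637 of 14021 with median-of-ratios scaling and 1546 of 14012 against naive and vehicle together. For edgeR and DESeq2, shares of all genes are given only for pppNS against vehicle, above. Their other counts are therefore no result about these 36 genes in particular. SLR14 against SLR10 and vehicle against naive gave 0 under every alternative run. With each replicate left out in turn the counts ran from 2 to 3 (SLR10 against vehicle), 3 to 5 (SLR14), 3 to 32 (poly(I:C)), 1 to 3 (pppNS), 1 to 20 (pppNS against SLR10) and 1 to 2 (pppNS against poly(I:C)). Left out vehicle libraries leave 1 in that group, which is then assumed to vary like the other groups.

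Residuals of libraries with equal replicate numbers had a median correlation of 0.03 (from -0.519 to 0.8, over 0.1 in 15 of 40 pairs). Those with different numbers had a median of -0.028 (from -0.879 to 0.72, over 0.1 in 27 of 80). With ranges this wide, the medians do not decide whether replicate numbers mark pairs of libraries. With a replicate block the counts against vehicle were 3 for SLR10, 4 for SLR14, 9 for poly(I:C) and 3 for pppNS. They were 22 for pppNS against SLR10, 2 for pppNS against poly(I:C) and 0 for the other 2 comparisons. Over all 14012 genes the calls against vehicle were 5674, 5559, 5224 and 513 in the same order. They were 6196 for pppNS against SLR10 and 4100 for pppNS against poly(I:C).

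Of 40 results for single genes, 30 were called, and 6 values turned their sign, none of them of a called gene. Rrm2 in SLR14 against SLR10 was -0.03 with the erythroid covariate. With each replicate left out, Pold1 in poly(I:C) against vehicle ran from -0.55 (without poly(I:C) replicate 2) to 0.1 (without replicate 1), and Tk1 in pppNS against poly(I:C) from -0.14 (without poly(I:C) replicate 1) to 1.97 (without replicate 2). Pold1 in pppNS against vehicle was -0.1 with scaling to the reads in named genes, -0.18 with the covariate and -0.15 against naive spleens. The causes were not tested. The calls of Rfc3 in SLR10, SLR14 and poly(I:C) against vehicle held under every alternative run. Limits are the 2 vehicle libraries, the unstated time and the spread within SLR14 and poly(I:C). In the simulated data, with fewer changed genes than called here, 2-fold changes were mostly missed.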
